A study of Homo sapiens with 12 samples.

Results

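The genes described here are 10 non-coding hosts of small nucleolar RNAs (snoRNAs): SNHG1, SNHG5, SNHG6, SNHG8, SNHG12, SNHG15, SNHG16, GAS5, ZFAS1 and EPB41L4A-AS1. They were chosen by name, and all 10 are among the 57134 genes of the count table. The table covers 12 total RNA libraries of HCT116, a human colon carcinoma line, made with MATQ-seq, which amplifies RNA with and without a poly(A) tail. The design set libraries treated by scDASH, in which Cas9 cuts ribosomal RNA (rRNA) sequence out of the library, beside untreated ones. The groups are 2 DASHed and 2 untreated mini-bulk libraries, and 4 DASHed and 4 untreated libraries of single cells sorted by FACS, with no other agent or genotype named. Since the labels name no separate cultures, a mini-bulk p-value reflects only how far these libraries spread, and that spread may be technical. With 1 cell to a library and no culture named, the single-cell groups are described without a test.

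A snoRNA host gene carries snoRNAs in its introns. When the transcript is spliced, the snoRNA is trimmed out of the intron, joins proteins and guides the chemical modification of rRNA. C/D box snoRNAs guide ribose methylation, and H/ACA box snoRNAs guide the conversion of uridine to pseudouridine. The spliced exons of these hosts carry no long open reading frame and are often short-lived, because translation of their short frames exposes them to nonsense-mediated decay. Many hosts begin with a terminal oligopyrimidine (TOP) stretch, as do the mRNAs of ribosomal proteins, which ties their fate in the cell to growth and translation.

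Library totals were 837614 to 1087711 estimated counts in DASHed mini-bulk, 5803180 to 6026584 in untreated mini-bulk, 1018874 to 1573651 in DASHed cells and 5545355 to 6008358 in untreated cells. rRNA took 20.5 to 24.4% of counts in DASHed and 45.2 to 52.9% in untreated libraries. Long intergenic non-coding RNA (lincRNA) genes flagged for 18S rRNA sequence held further counts. With these 18S-like lincRNAs the share was 29.9 to 42.7% in DASHed and 72.85 to 85.8% in untreated libraries. Levels are given as CPM, a gene's count scaled to all counts of its library, unless said otherwise, so a level moves with the rRNA share too. A count of 3, used as the limit that a count of 0 allows, corresponded to 0.498 to 3.58 CPM, and intervals and limits cover counting error only. The summed CPM of 9 epithelial markers was 174 to 222 in untreated and 1340 to 1507 in DASHed mini-bulk, and 288 to 877 and 1138 to 4237 in untreated and DASHed cells. Of the epithelial markers, LGALS4 was at 0 in untreated mini-bulk and untreated cells, and VIL1 in DASHed mini-bulk and untreated cells. Of 9 blood and stromal markers, CD3E, LYZ and HBB were at 0 in every library. The summed CPM of that list was 5.46 to 7.37 in untreated and 19.1 to 32.3 in DASHed mini-bulk. In untreated and DASHed cells it was 3.20 to 7.97 and 2.25 to 29.9. The part of these marker levels in the results was not tested.

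The hosts differ in which snoRNAs they carry. SNHG1, GAS5, SNHG16, SNHG5, SNHG6 and ZFAS1 carry C/D box snoRNAs, whereas SNHG8, SNHG15 and EPB41L4A-AS1 carry an H/ACA box snoRNA each and SNHG12 carries snoRNAs of both classes. In GENCODE v29 (GRCh38) SNHG1 lies on chromosome 11 from 62851988 to 62855914 (minus strand), GAS5 on chromosome 1 from 173863900 to 173868882 (minus), SNHG16 on chromosome 17 from 76557766 to 76565348 (plus) and ZFAS1 on chromosome 20 from 49278178 to 49295738 (plus). Retained-intron transcripts, in which intron sequence stays in the RNA, make up 19 of 29 annotated transcripts of GAS5, 13 of 25 of SNHG1, 10 of 17 of SNHG12 and 4 of 23 of SNHG5. Whether the retained sequence holds a snoRNA was not checked. The gene-level counts can therefore hold unspliced as well as spliced RNA. Of the hosts' exonic bases, 49.6% in EPB41L4A-AS1, 47.0% in ZFAS1, 36.4% in SNHG6 and 33.4% in SNHG16 are shared with exons of other genes, in part on the opposite strand. The handling of strand is not given in the sources used here, so these values are uncertain.

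The starts of these genes are shown because a pyrimidine stretch at or near the first base is a feature that many hosts share with ribosomal protein genes. The sequences run 20 bases before and 30 bases from the RefSeq start (GRCh38.p14). Capitals mark a C followed by at least 4 bases that are each C or T, with its C within 5 bases of the start, searched on the transcribed strand.
SNHG5 (chr6:85678704-85678753, minus): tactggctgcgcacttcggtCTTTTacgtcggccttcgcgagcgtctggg
SNHG8 (chr4:118278742-118278791, plus): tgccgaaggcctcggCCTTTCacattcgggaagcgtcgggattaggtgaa
SNHG12 (chr1:28581844-28581893, minus): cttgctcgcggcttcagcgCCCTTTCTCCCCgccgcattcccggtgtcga
SNHG16 (chr17:76557744-76557793, plus): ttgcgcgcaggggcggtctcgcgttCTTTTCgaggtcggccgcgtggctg
ZFAS1 (chr20:49278622-49278671, plus): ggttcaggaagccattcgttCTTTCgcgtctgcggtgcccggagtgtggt
SNHG1 (chr11:62855856-62855905, minus): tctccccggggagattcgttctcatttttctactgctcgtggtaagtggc
GAS5 (chr1:173869016-173869065, minus): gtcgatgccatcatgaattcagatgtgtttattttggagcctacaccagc

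Of the 8 hosts with an entry in the promoter table, 5 (62.5%) had such a stretch, against 74.4% of 78 ribosomal protein genes and 21.1% of all 35116 promoters. EPB41L4A-AS1, whose start is not printed, had none. A TATA, which reads the same on both strands, lay 16 to 40 bases before the start, apart from the stretch, in 4 of the 8 hosts and in 6.24% of all promoters. The 4 were SNHG5, SNHG8, SNHG12 and ZFAS1. RefSeq and GENCODE do not place all of these starts at the same base. The RefSeq start lay 464 bases inside the GENCODE gene for ZFAS1 and 1259 bases inside it for SNHG12, and 163 bases before it for GAS5. The bases searched for GAS5 thus do not reach its GENCODE start. The stretch began at the RefSeq start itself only in SNHG5 and ZFAS1. It began 5 bases before the start in SNHG8, 1 base before it in SNHG12 and 5 bases after it in SNHG16. The match is a description of letters and not of a site in use.

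In mini-bulk SNHG1 and SNHG16 had the highest CPM, followed by GAS5, and the other 7 hosts were scarce. The order was not the same in DASHed cells, where the mean CPM of SNHG8 (32.5) stood above that of GAS5 (23.0). That mean of SNHG8 included a cell at 104 CPM. In the untreated mini-bulk libraries SNHG1 stood at 55.1 and 50.6 CPM, SNHG16 at 41.1 and 54.7, and GAS5 at 19.3 and 21.0. ZFAS1 followed at 11.7 and 9.13 CPM, and SNHG5, SNHG6, SNHG15, SNHG12, EPB41L4A-AS1 and SNHG8 lay between 0.639 and 6.07 CPM. SNHG1, SNHG16 and GAS5 together made up 79.2 and 80.8% of the counts of the 10 hosts in these libraries. Per kb of the median annotated transcript, which need not be the expressed length, the mean untreated mini-bulk level was 70.6 CPM per kb for SNHG1, 33.8 for SNHG16, 29.3 for GAS5, 15.7 for ZFAS1, 9.78 for SNHG6, 8.44 for SNHG5, 3.22 for SNHG15, 2.71 for SNHG8, 2.66 for SNHG12 and 1.75 for EPB41L4A-AS1. In that order SNHG16 and GAS5 overlapped between libraries, and so did each neighbouring pair from SNHG15 downwards, while the other neighbours were apart. In DASHed mini-bulk the first 3 kept their order and were apart from each other, at 58.0, 50.2 and 33.6 CPM per kb. Per kb of the longest transcript SNHG16 instead stood above SNHG1 in DASHed mini-bulk, at 19.7 against 15.7.

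**Figure D1:**
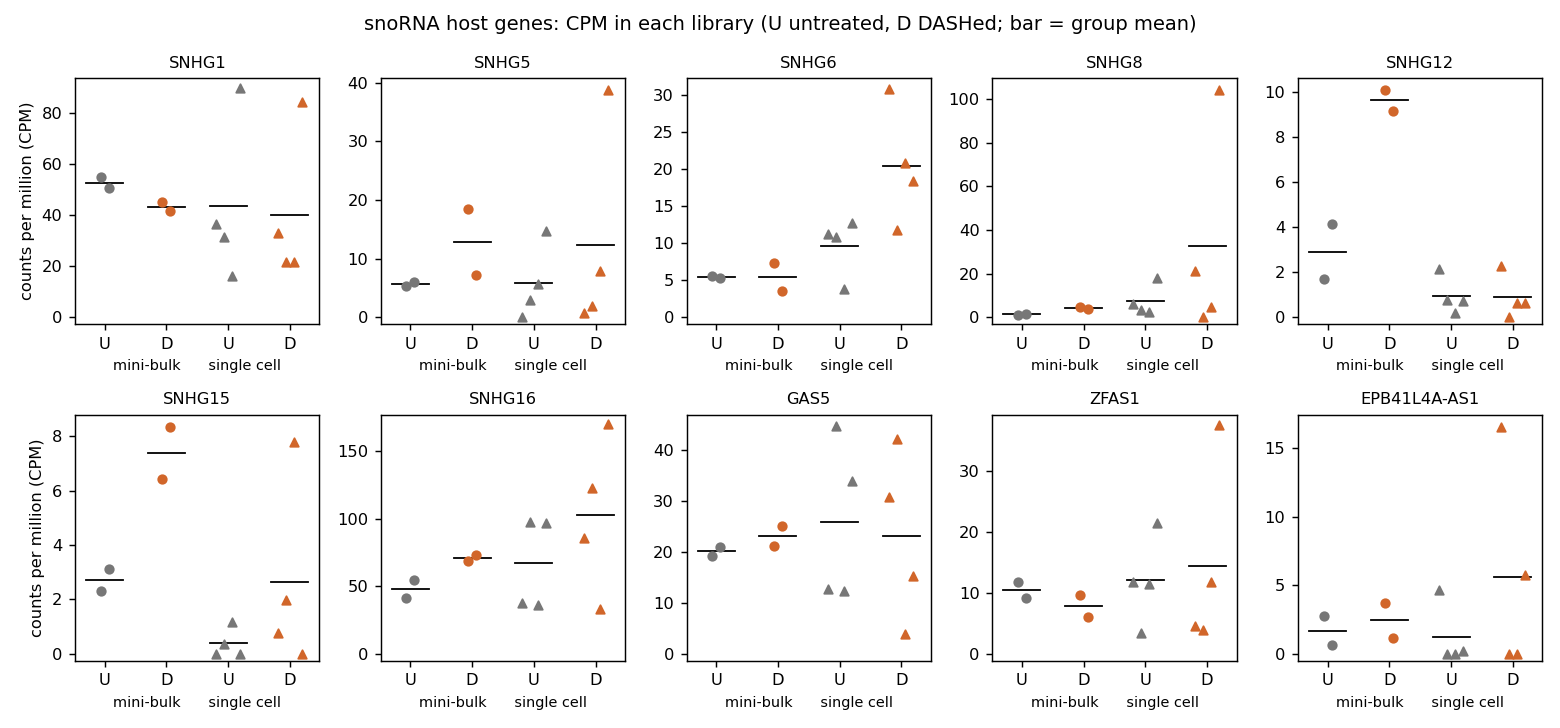
CPM of each of the 10 host genes in the 12 libraries (circles mini-bulk, triangles single cells, grey untreated, orange DASHed, bars group means; linear axes that differ between genes). Mini-bulk CPM of SNHG1 was lower in both DASHed libraries (41.8 and 45.1) than in both untreated ones (50.6 and 55.1), and its cells reached from 15.99 to 90.1 CPM.

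Against the rest of the transcriptome, 5 of the 9 hosts that could be tested in mini-bulk fell after depletion and none rose. These were SNHG1, GAS5, SNHG16, SNHG6 and ZFAS1, all hosts of C/D box snoRNAs, and they fell 2.71 to 5.50-fold on the TMM scale, which sets the bulk of genes to no change. Of all 10083 genes tested, 29.7% were called, 19.8% lower and 9.9% higher (edgeR, adjusted p under 0.05). The median log2 fold change was −1.44 over the 9 hosts and 0.03 over all genes tested, and all 9 hosts lay below 0 on this scale. Scaling to library totals alone moved the median of all genes by 2.01, to 2.04, and the share of higher calls among all called genes from 33.3% to 98%. On that scale the hosts' median was 0.58, no host was called lower, and SNHG12 was called higher. SNHG1 (−0.27) and ZFAS1 (−0.43) lay below 0 without being called. The direction is thus one relative to other genes: a typical gene took a 4.12-fold larger share of counts after depletion, while the 10 hosts summed to 187 ± 11.5 CPM in the DASHed and 151 ± 7.38 CPM in the untreated libraries (SD, n = 2 per group). Their ratio was 1.24.

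SNHG1, host of a cluster of C/D box snoRNAs, had 45.1 and 41.8 CPM in the DASHed and 55.1 and 50.6 CPM in the untreated mini-bulk libraries. Both DASHed values lay below both untreated ones, as they did for 1 of the 9 tested hosts and for 5.95% of all tested genes. Its log2 fold change was −2.31 (SE 0.24, edgeR adjusted p = 0.000354). ZFAS1, which starts head to head with ZNFX1 on the opposite strand, had 9.64 and 5.97 CPM in DASHed and 11.7 and 9.13 CPM in untreated libraries, values that overlapped. Its log2 fold change of −2.46 (SE 0.49, edgeR adjusted p = 0.00661) was the lowest of the 9 hosts. ZNFX1, with which it shares 11.1% of its exonic bases, moved the other way in CPM, from 33.6 and 36.0 to 169 and 187, and its log2 fold change of 0.33 (SE 0.18) did not pass (edgeR adjusted p = 0.197).

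GAS5, the growth arrest-specific transcript that accumulates in cells whose translation is slowed, had 21.2 and 25.1 CPM in DASHed and 19.3 and 21.0 CPM in untreated mini-bulk. The DASHed values were just above the untreated ones in CPM, while against other genes its log2 fold change was −1.82 with SE 0.29 (edgeR adjusted p = 0.00289). SNHG16, host of the SNORD1 group, had 68.9 and 73.3 CPM against 41.1 and 54.7. Its CPM was also higher after depletion without overlap, and its log2 fold change was −1.44 with SE 0.20 (edgeR adjusted p = 0.00129). SNHG6, host of SNORD87 on chromosome 8, rested on 3 and 8 counts in the DASHed libraries against 31 and 33.9. It fell by 1.97 (SE 0.59, edgeR adjusted p = 0.0334), a call that ended without DASHed replicate 2 (log2 fold change −1.42, edgeR adjusted p = 0.117) and with DESeq2 (−1.85, adjusted p = 0.171). Without either untreated library SNHG6 was not tested.

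The other hosts were scarce in mini-bulk and did not pass. SNHG5, host of the SNORD50 pair, had 18.5 and 7.16 CPM after depletion and 5.27 and 6.07 without it, with a log2 fold change of −0.79 (SE 0.53, edgeR adjusted p = 0.281). Each of the 3 tested hosts of H/ACA box snoRNAs had between 3 and 11 counts in a DASHed library, and their CPM was higher in both DASHed than in both untreated libraries. SNHG12 had 10.1 and 9.19 against 1.67 and 4.13 CPM, with a log2 fold change of −0.20 (SE 0.61). SNHG15 had 6.44 and 8.36 against 2.32 and 3.10 CPM, with −0.56 (SE 0.59). SNHG8 had 4.597 and 3.58 against 0.996 and 1.55 CPM, with −0.29 (SE 0.67). EPB41L4A-AS1, host of SNORA13, had 1 to 16.6 counts in a mini-bulk library and was left out by the expression filter. Higher CPM without overlap was seen in 6 of the 9 tested hosts (66.7%) and in 76.7% of all tested genes, so on CPM the hosts' share was near that of other genes.

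**Figure D2:**
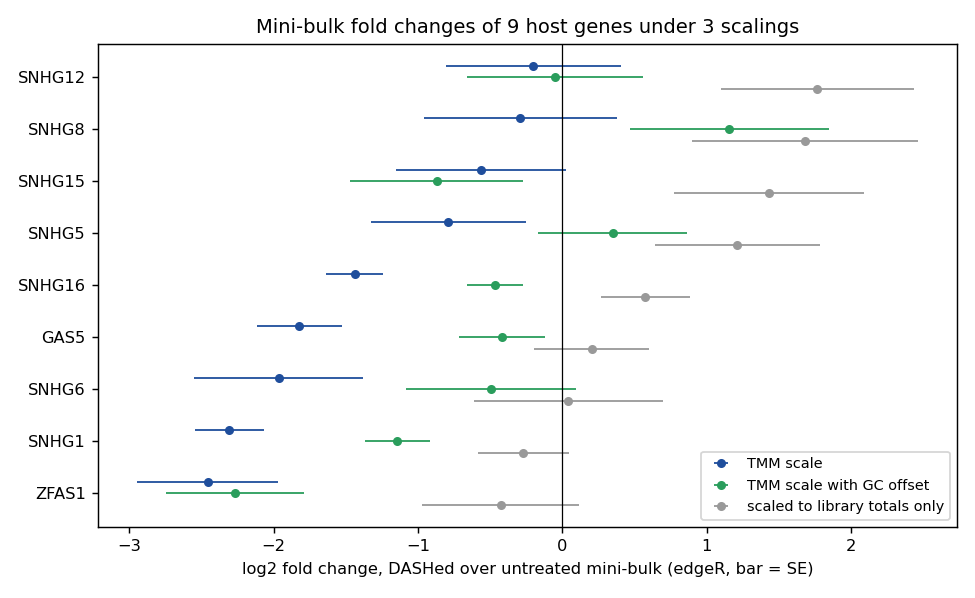
edgeR log2 fold changes (DASHed over untreated mini-bulk, points; SE, bars) of the 9 tested hosts on the TMM scale, on the TMM scale with a GC offset, and scaled to library totals alone. All 9 points lie below 0 on the TMM scale, whereas with library totals 7 lie above 0, and with the GC offset SNHG5 and SNHG8 lie above 0.

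GC content moved with the folds over all tested genes, and whether the hosts followed it was not tested. The median GC content of the transcripts was 42.7% for GAS5, 44.5% for SNHG1, 45.8% for SNHG16, 42.0% for SNHG6 and 50.5% for ZFAS1. It was 51.4% over all tested genes and 42.7% over genes called lower. Of the hosts not called, SNHG5 had 44.5% with a log2 fold change of −0.79 (SE 0.53), and SNHG8 had 42.1% with −0.29 (SE 0.67). SNHG12 had 50.7% and SNHG15 54.4%. With an offset that removes each library's trend with GC content, 2 of the 9 hosts were called lower, against 2.19% of all tested genes. SNHG1 had a log2 fold change of −1.14 (SE 0.23, edgeR adjusted p = 0.0229) and ZFAS1 one of −2.27 (SE 0.48, edgeR adjusted p = 0.0303). The calls of GAS5 (log2 fold change −0.42, edgeR adjusted p = 0.569), SNHG16 (−0.47, 0.268) and SNHG6 (−0.49, 0.768) ended, and the median of the 9 hosts was −0.47. With the replicate number as a block beside the offset, SNHG16 passed again (−0.46, edgeR adjusted p = 0.0326). ZFAS1 thus had nearly the same log2 fold change with and without the offset, while those of SNHG6, GAS5 and SNHG16 were under 0.5 in size with it.

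**Figure D3:**
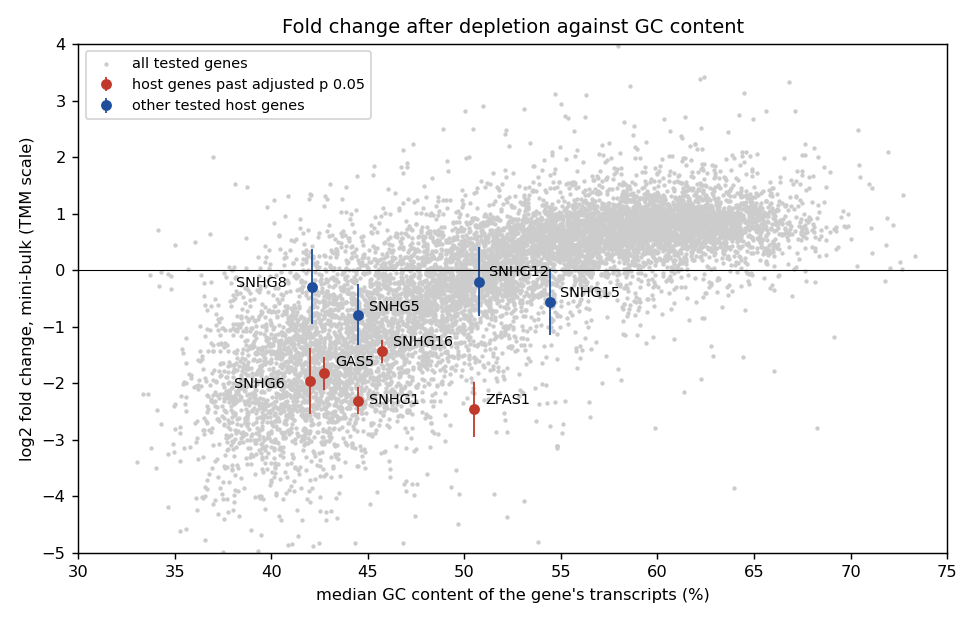
Mini-bulk log2 fold change (TMM scale) against the median GC content of a gene's transcripts, for all tested genes (grey) and the 9 tested hosts (red past the threshold, blue not; bars SE). The grey cloud rises with GC content, and ZFAS1, at 50.5% GC and −2.46, and SNHG1, at 44.5% and −2.31, lie low for their GC content.

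In single cells the hosts took 1.52 times the share of counts after depletion that they took without it (1430 against 3962 counts summed over cells, exact Poisson-based 95% interval 1.43 to 1.61). Their summed CPM was 227, 206, 112 and 475 in DASHed cells 1 to 4, and 123, 195, 89.4 and 288 in the untreated cells of the same numbers. Cell 4 was the highest and cell 3 the lowest in both groups, and the groups overlapped. Over 9356 genes, the deviations of same-numbered cells from their group's mean correlated at 0.913 to 0.922, so the numbers were taken to pair the cells, from the data alone, since no label explains them. Within the pairs the ratio of DASHed to untreated share was 1.85 (1.61 to 2.12), 1.05 (0.905 to 1.22), 1.25 (1.05 to 1.49) and 1.65 (1.51 to 1.80) in cells 1 to 4. The summed ratio depended on cell 4, at 1.02 without DASHed cell 4 and 1.95 without untreated cell 4. With both cells of that number left out it was 1.31.

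The median of 13469 genes with at least 20 counts took a 2.20-fold larger share after depletion, so the hosts moved less than this median too. Relative to it, 7 of 10 hosts lay below 0, against 50% of all genes, with a median log2 ratio of −0.30. With 1 cell left out in turn, 5 to 7 hosts lay below 0, the 5 without DASHed cell 2, DASHed cell 3 or untreated cell 4. By the mean within same-numbered pairs 9 hosts lay below 0, and their median was −0.88. Over the 7 hosts with at least 100 counts, relative to genes with as many counts, the median was −0.92. More than 2-fold lower relative to the median were SNHG1, SNHG12 and GAS5, 3 of 10 against 23.7% of all genes. More than 2-fold higher was SNHG8, at 1.04 on the log2 scale, 1 of 10 against 12.6%. This value rested on cell 4: it turned to −0.69 without DASHed cell 4 and to −0.71 as the mean within pairs. SNHG1 lay below the median of genes in all 4 pairs, at −1.68, −1.72, −1.21 and −1.44 on the log2 scale. GAS5, SNHG16 and ZFAS1 were below it in all 4 pairs as well, over −3.06 to −0.32. These were 4 of the 5 hosts with at least 20 counts in each pair, against 30.9% of the 3545 genes with as many. SNHG6, the other of the 5 and called lower in mini-bulk, was at −0.16, −1.08, 0.56 and −0.84 in the pairs. The difference between mini-bulk and single cells was not tested.

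The share ratios of single hosts over the summed cells ranged widely. SNHG1 had a ratio of 0.984 (0.849 to 1.14) and GAS5 of 0.818 (0.663 to 1.001), and both intervals hold 1. SNHG16 had 1.54 (1.39 to 1.70), ZFAS1 1.32 (1.02 to 1.68), SNHG6 2.18 (1.72 to 2.75) and SNHG5 2.41 (1.79 to 3.21). SNHG8, host of SNORA24, had 5.02 (4.07 to 6.20), with 164 of its 199 DASHed counts in cell 4. EPB41L4A-AS1 had 4.66 (2.71 to 8.07), with 22 of its 31 DASHed counts in cell 1. The few counts of SNHG15 (15 against 9) gave 7.02 (2.88 to 18.2) and those of SNHG12 (5 against 21.8) gave 0.957 (0.283 to 2.59). No host had groups of cells that did not overlap in CPM, against 7.45% of genes higher and 0.921% lower without overlap.

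Differences between cells recurred in the DASHed and untreated library of the same number. The highest cell had the same number in both groups for 8 of 10 hosts, against 77.5% of all genes, a share near that of other genes. SNHG1 had 36.6, 31.6, 15.99 and 90.1 CPM in untreated cells 1 to 4 and 33.2, 21.6, 21.5 and 84.5 CPM in DASHed ones. Its level in cell 4 thus exceeded that in every other cell at least 2-fold in both groups, and both mini-bulk groups lay between the cells. SNHG5 had 0, 2.89, 5.65 and 14.7 CPM in untreated cells and 0.756, 1.96, 7.81 and 38.8 CPM in DASHed cells, the same order of cells in both groups. ZFAS1 was also highest in cell 4, at 21.4 CPM untreated and 37.5 DASHed, and lowest in cell 2, at 3.50 and 3.93.

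SNHG8 was far higher in cell 4 than in the others. It had 6.08, 3.07, 2.33 and 17.8 CPM in untreated cells, and 21.1, 0, 4.55 and 104 CPM in DASHed cells, where 0 counts in cell 2 allow up to 2.94 CPM. GAS5 differed in that it was highest in cell 2, with 44.8 CPM untreated and 42.2 DASHed, and lowest in cell 3, with 12.3 and 3.90. In cells 1 and 4 the groups crossed, with GAS5 at 12.7 untreated and 30.7 DASHed in cell 1, and at 33.9 and 15.3 in cell 4. SNHG16 had 37.6, 97.7, 36.5 and 96.8 CPM untreated and 85.8, 123, 33.1 and 170 CPM DASHed, so that cells 2 and 4 stood above cells 1 and 3 in both groups. EPB41L4A-AS1 had 4.69 CPM in untreated and 16.6 CPM in DASHed cell 1, and 0 counts in cells 2 and 3 of both groups, which allow up to 0.499 to 2.94 CPM. SNHG15 was highest in cell 3, at 1.16 CPM untreated and 7.81 DASHed, and had 0 counts in cell 4 of both groups. Over all hosts, 5 of 40 values were at 0 in each group of cells, and no value was at 0 in mini-bulk.

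**Figure D4:**
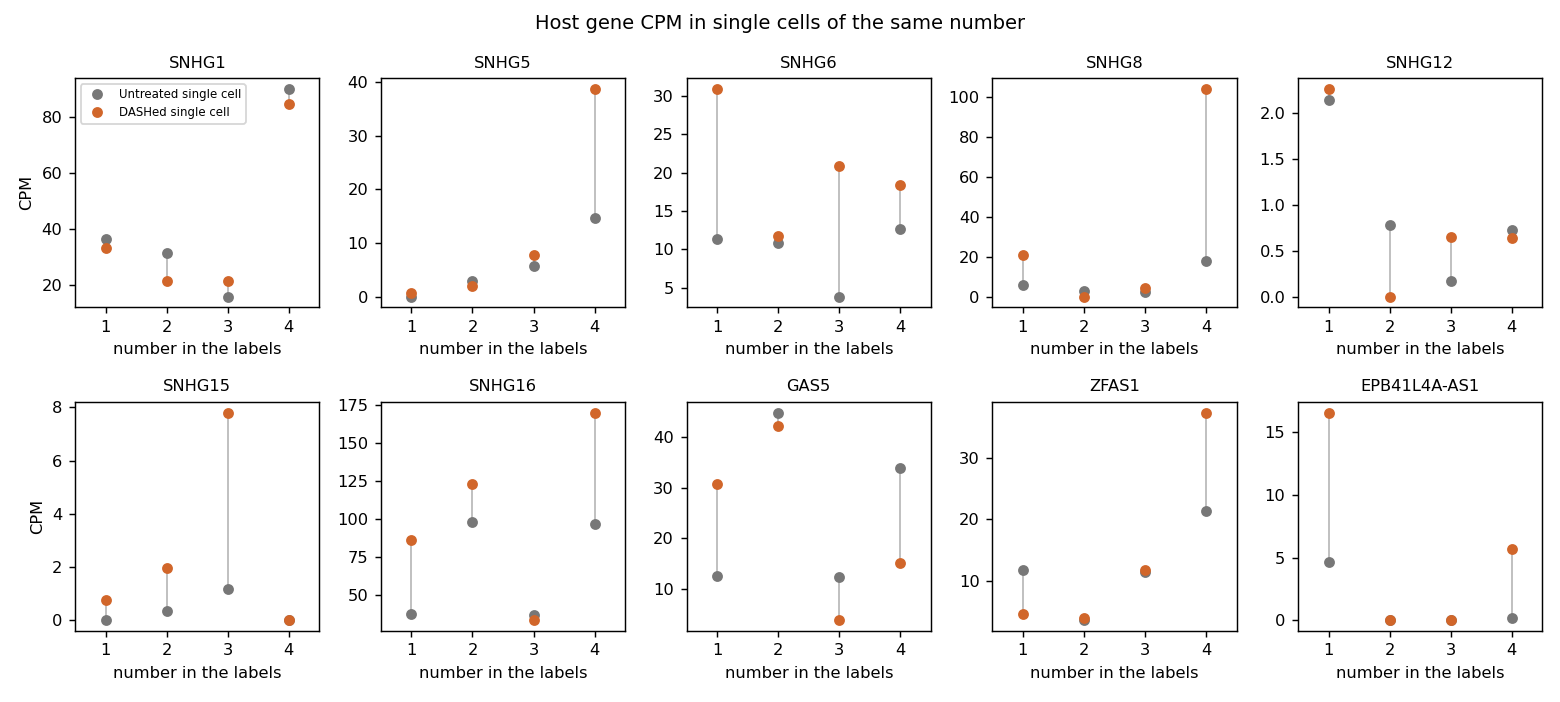
CPM of each host in untreated (grey) and DASHed (orange) single cells by their number in the labels, with a line joining cells of the same number (linear axes that differ between genes). SNHG1, SNHG5, SNHG8 and ZFAS1 are highest in cell 4 of both groups, GAS5 in cell 2 of both groups and EPB41L4A-AS1 in cell 1 of both groups.

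The snoRNAs inside these hosts were nearly without counts. Several lie in annotated exons of their host, such as SNORA24 with 131 shared bases and SNORA9 with 133. How reads were divided between such a snoRNA and its host is not given, so a count of 0 need not mean absence. Of 34 snoRNAs listed for the 10 hosts, 21 are named in the table, with none of the 10 listed for GAS5 among them, and 15 of the 21 had 0 counts in all 12 libraries. Another 4 summed to under 10 counts, and 2 (9.52% of the 21) had at least 10, against 6.79% of 545 snoRNA names in the table. Both lie in introns of ZFAS1 on chromosome 20 (GENCODE v29, GRCh38, plus strand). They are C/D box snoRNAs and are printed because they alone of the listed snoRNAs had at least 10 counts. Neither shares bases with annotated exons of its host, as is also so for SNORD1B, SNORD99 and SNORA13, which had 0 counts. Whether the counts came from trimmed snoRNAs or from unspliced ZFAS1 RNA was not tested. Capitals mark TGATGA, the letters of a C box, and the last CTGA, the letters of a D box, on the strand of the RNA.
SNORD12B (chr20:49280319-49280409): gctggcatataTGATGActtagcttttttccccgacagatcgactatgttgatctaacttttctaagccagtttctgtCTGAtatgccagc
SNORD12C (chr20:49278940-49279028): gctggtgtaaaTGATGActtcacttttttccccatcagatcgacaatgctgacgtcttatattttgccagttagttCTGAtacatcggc

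TGATGA followed by CTGA occurs in 76.4% of 288 annotated SNORD transcripts. SNORD12B and SNORD12C are identical at 69 of 93 aligned columns (74.2%). SNORD12B had 33 counts in untreated cell 2 and 4 counts in DASHed cell 2, or 5.95 and 3.93 CPM, and otherwise 3 counts in 1 untreated mini-bulk library. In untreated cell 2 it exceeded ZFAS1 itself, which had 19.4 counts. SNORD12C had 6 counts in untreated cell 3 and 8 counts in DASHed cell 3, with 0 in the other cells and 6 counts over the mini-bulk libraries. Each was thus seen in cells of 1 number only, in both the DASHed and the untreated library.

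The lists of related genes place the hosts among them in mini-bulk. They are described by counts and medians, beside 9.9% of all genes higher and 19.8% lower and a median of 0.03. Of 18 other non-coding snoRNA hosts 9 were tested, with 1 higher and 1 lower and a median log2 fold change of −0.61. SNHG4 fell by 2.16 (SE 0.41, edgeR adjusted p = 0.0057) and SNHG19 rose by 1.38 (SE 0.40, edgeR adjusted p = 0.0297). The call of SNHG19 ended with the GC offset (log2 fold change 0.90, edgeR adjusted p = 0.295), with DESeq2 (adjusted p = 0.0845), without DASHed replicate 1 (edgeR adjusted p = 0.0519) and without either untreated replicate (edgeR adjusted p = 0.139 and 0.274). Among 34 protein-coding snoRNA hosts 6 were higher and 12 lower, with a median of −0.24. Of these, the 16 that are not ribosomal protein genes had 2 higher and 9 lower, with a median of −1.14. EIF4A2, a helicase of translation initiation, fell by 2.83, TPT1, a translationally controlled protein, fell by 2.49, and HSPA8, a chaperone, fell by 1.80.

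The proteins that assemble with snoRNAs had 3 members higher and 2 lower of 16, with a median of −0.01. NHP2, an H/ACA core protein, rose by 1.59 (SE 0.43), NOP58, a C/D core protein, fell by 1.48 (SE 0.24), and DKC1, the pseudouridine synthase, fell by 1.25 (SE 0.28). Nonsense-mediated decay factors had 2 higher and 4 lower of 17, with a median of 0.01. UPF3B, which links decay to exon junctions, fell by 2.57 (SE 0.59), MAGOHB, of the exon junction complex, fell by 2.09 (SE 0.58), and SMG1, the kinase of UPF1, fell by 1.25 (SE 0.19). With the GC offset no decay factor was called. The calls of DKC1 and MAGOHB also ended without DASHed replicate 2 (log2 fold changes −0.84 and −1.95), that of MAGOHB without DASHed replicate 1 (−1.98), and that of NHP2 without untreated replicate 2 (1.04). With DESeq2 the calls of DKC1 (−1.10), UPF3B (−2.45) and MAGOHB (−1.95) ended. Cytosolic ribosomal protein genes, which share the TOP start, had 18 higher and 16 lower of 79, with a median of 0.13. The 3 with the largest folds past the threshold were all lower, though more of the list was called higher than lower: RPL7 fell by 2.10, RPS24 fell by 2.09 and RPL9 fell by 1.95. With the GC offset 6 ribosomal protein genes were called higher and 0 lower, with a median of 0.31.

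Other long non-coding RNAs had none higher and 8 lower of 13, with a median of −1.25. TUG1 fell by 3.06 (SE 0.32), OIP5-AS1 fell by 2.45 (SE 0.45) and MALAT1, a nuclear transcript, fell by 2.33 (SE 0.19). The median GC content was 44.5% over the 9 tested hosts, 44% over these long non-coding RNAs, 51.3% over the other non-coding hosts and 50.3% over ribosomal protein genes. In single cells the median relative to all genes was −0.76 for the long non-coding RNAs, 0.42 for the other non-coding hosts and 0.60 for ribosomal protein genes, beside −0.30 for the hosts. It was 0.12 for all protein-coding hosts and −0.17 for the 16 outside ribosomal protein genes. Of the genes named from these lists, SNHG4, TPT1, HSPA8 and TUG1 stayed called with the GC offset, and the calls of the others ended. The differences between lists were not tested.

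Over the 12 libraries, the gene whose profile was most like the summed hosts was EML4, with Pearson's r = 0.972, followed by MTPN (0.959), LUC7L3 (0.955), TAF9 (0.916) and HIF1AN (0.914). The profiles were log2 CPM of counts outside rRNA with a pseudocount of 1, over 4039 genes with at least 50 counts on average. Those counts still held the lincRNA genes flagged for rRNA sequence. The points share libraries, depth and, in single cells, numbers, and the r of 95% of genes was under 0.602.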

How the data were processed

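The deposited table holds the authors' estimated counts for 12 libraries, not scaled to depth. The quantifier was kallisto 0.46.2, per the submitters' processing notes. For genome build, annotation, strand and the summing of transcripts, nothing is stated in the sources used here. Members, lists and alternatives were chosen with earlier results of these data known. Counts were rounded for tests. For mini-bulk, edgeR 4.0.16 in R 4.3.3 ran its quasi-likelihood test (TMM factors, default expression filter, Benjamini-Hochberg adjustment over all genes at 0.05), with SE taken as the fold change over the root of F. The test was checked on simulated data. DESeq2 1.42.0, other factors, no filter, rRNA left out, a GC offset (loess, span 0.5), left-out libraries and replicate blocks were alternatives. rRNA was 547 genes and pseudogenes, without the lincRNA genes flagged for rRNA sequence. Single-cell ratios used summed CPM with a pseudocount of 1, centred on the median of genes with at least 20 counts; pairs were centred on genes with 20 counts in the pair. The pairing comes from the data alone: same-numbered cells correlated at 0.913 to 0.922, others at −0.386 to −0.222, which centring forces below 0.

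GENCODE v29 gave positions, lengths and GC content, and RefSeq (GRCh38.p14) the starts. All 10 members were named. From each other list up to 3 genes of largest fold past the threshold were named, and the marker lists are given by sums. Of listed snoRNAs, those with 10 or more counts were named, and the 5 genes most like the summed hosts.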

Additional observations from a re-analysis of the deposited data

Results flagged for a closer look

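EPB41L4A-AS1 stood at 4.69 CPM (27 counts) in untreated cell 1, while the other 3 untreated cells were between 0 and 0.176 CPM, so that this cell lay far from the others. DASHed cell 1 was also the highest of its group, at 16.6 CPM. Of 20 groups of 4 cells checked, 1 had a cell that far away, and chance gives about 1 in 20.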

How the results depend on the processing

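Directions of the hosts depended on the scaling. With library totals alone 6856 genes and 1 host were called, and the hosts' median log2 fold change was 0.58; SNHG5 was at 1.21, SNHG6 at 0.043, SNHG8 at 1.68, SNHG12 at 1.77, SNHG15 at 1.44, SNHG16 at 0.58, GAS5 at 0.20, HSPA8 at 0.23, NOP58 at 0.54, DKC1 at 0.77, SMG1 at 0.76 and RPL9 at 0.069. With the GC offset 390 genes (169 higher, 221 lower) and 2 hosts were called, with a median of −0.47, and SNHG5 (0.35), SNHG8 (1.16), NOP58 (0.072) and SMG1 (0.37) turned. With replicate number as a block 5403 genes were called, and the same 5 hosts; the number is only shared in mini-bulk, where deviations of replicate 1 correlated at 0.453 between groups. With the block and the GC offset 1654 genes and 3 hosts (SNHG1, SNHG16 and ZFAS1) were called, with a median of −0.46, and SNHG5 (0.32), SNHG8 (1.17), SNHG12 (0.019), NOP58 (0.073) and SMG1 (0.38) turned. DESeq2 called 1790 genes. Left-out mini-bulk libraries gave 1417 to 3450 genes called, 4 to 5 hosts called and a median of −1.87 to −1.07; SNHG8 ranged from −0.41 to 0.024, the latter without DASHed replicate 2, and SNHG12 from −0.74 to 0.17, the latter without untreated replicate 2. Among these, the 2 lowest numbers of genes called were 1417 without untreated replicate 1 and 1426 without untreated replicate 2.

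The summed hosts' mini-bulk ratio was 0.857 outside rRNA and 0.303 with TMM. In cells the summed ratio was 0.938 outside rRNA. Only rRNA genes and pseudogenes were left out there, so lincRNA genes flagged for rRNA sequence stayed in these totals. With those lincRNAs the rRNA share was 85.8 and 82.15% in untreated and 42.7 and 38.0% in DASHed mini-bulk. A ratio with those lincRNAs also left out was not computed. In cells the summed ratio was 1.42 as the mean within replicate numbers and 1.02 to 1.95 with 1 cell left out. Without number 4, an alternative chosen after seeing the data, it was 1.31. The cells' median log2 ratio was −0.88 within replicate numbers, −0.92 at 100 counts, 0.83 without centring and −0.86 to −0.17 with 1 cell left out. That of SNHG8 was −0.71 within replicate numbers and −0.69 to 1.77 with 1 cell left out, the former without DASHed cell 4. The causes were not tested. Depth limits SNHG6, SNHG8, SNHG12, SNHG15, ZFAS1 and EPB41L4A-AS1, with 1 to 11 counts in a DASHed mini-bulk library.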
